A study of Mus musculus with 24 samples.

Results

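The genes described here are 39 splicing factors and nuclear RNA-binding proteins, followed in mouse lung after ovalbumin and diesel exhaust. They were chosen by name, as SR proteins, SR-like and U1-associated proteins, hnRNP proteins and other RNA-binding proteins of the nucleus. All probe sets whose annotation names 1 such gene and no other were taken, which gave 110 of the 22690 probe sets on the array and 35 of the 39 genes. Srsf7, Hnrnpa0, Hnrnpa3 and Taf15 had no probe set of their own by this rule, and 7 further probe sets that name a member beside other genes were left out. Testing asked for a geometric mean signal of at least 138, which left 101 of the 110 members and 13576 of all probe sets.

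Lung RNA of mice was hybridised to 24 arrays in 6 groups of 4. Mice breathed filtered air, diesel exhaust at 500 ug/m3 (DE 500) or diesel exhaust at 2000 ug/m3 (DE 2000), in each case for 4 hours a day over 5 days. Each of these exposures was combined with saline or with 100 ug of ovalbumin (OVA), an egg-white protein used to sensitise animals, on 3 days. The groups are called air_saline, DE500_saline, DE2000_saline, air_OVA, DE500_OVA and DE2000_OVA. The labels used here name no strain, sex or age, and leave unsaid if each replicate came from its own animal, so the p-values measure the spread between these samples, which may be technical. Whole lung is a mixture of cell types, and fewer cells of a type cannot be told apart from less RNA per cell.

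The spliceosome removes introns from new transcripts, and the proteins described here guide it. SR proteins carry RNA-recognition motifs and a tail rich in arginine and serine, and mostly promote the use of exons to which they bind. Many hnRNP proteins coat nascent RNA and often act against SR proteins at the same exon. Several members of both families control their own level by splicing a conserved exon or retained intron into their own transcript, which sends that transcript to nonsense-mediated decay or holds it in the nucleus. Such genes make several transcripts with different 3' ends, and different probe sets of 1 gene can therefore measure different RNAs. On this type of array the suffix _at marks a probe set for 1 transcript, _a_at one shared by transcripts of 1 gene, _s_at one shared by transcripts of different genes, and _x_at one with some probes similar to other sequences.

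The saline and OVA arrays differed in 2 control measures, and these values belong beside every comparison of the arms. The labelling reaction starts at the 3' end of each RNA, so a high ratio of 3' to 5' control signal means that less of the 5' part was labelled. Whether the RNA or the labelling differed was not tested. The mean log2 3'/5' ratio of Gapdh and actin was 1.84 ± 1.28 in saline and 0.21 ± 0.58 in OVA (SD, n = 12 each; difference -1.63, two-sided exact permutation test within exposures, p = 0.000262, adjusted over 4 measures 0.00035). The log2 signal of B1, a short repeat found in many introns, was 12.98 ± 0.53 in saline and 11.55 ± 0.46 in OVA (exact permutation p = 5.83e-06, the smallest this design allows). DE500_saline replicates 1 and 4 had mean ratios of 4.38 and 3.77, while replicates 2 and 3 of that group had 0.33 and 0.10. DE2000_OVA replicate 4 had 2.02, and the other OVA arrays lay between -0.13 and 0.20. Lung identity was clear. On every array Sftpc of alveolar type 2 cells lay at or above the 99.9867th percentile of signal. Scgb1a1 of club cells lay at or above the 99.93rd on every array.

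OVA arrays differed from saline arrays at most member probe sets, and in opposite directions for different genes. Averaged over the 3 exposures, 58 of the 101 tested members passed limma's test at an adjusted p below 0.05, where 46.3% of all tested probe sets passed. Of these, 22 members rose (21.8%, against 22.7% of all tested probe sets) and 36 fell (35.6%, against 23.6%). The share that rose was near the background and the share that fell was above it. The members were chosen with earlier results of these data known, so these shares are not independent of those results. The median change of the members was -0.06 on the log2 scale, beside -0.01 for all tested probe sets. Counted by gene, 6 genes had only rises among their calls, 15 had only falls, 6 had both and 8 had no call.

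By family the counts are given beside the 22.7% of all tested probe sets that rose and the 23.6% that fell; differences between families were not tested. Among SR proteins, 9 of 28 tested probe sets rose and 5 fell, with a median of 0.06. Among SR-like and U1-associated proteins, 2 of 9 rose and 5 fell, with a median of -0.29. Of the hnRNP probe sets 10 of 40 rose and 12 fell, with a median of -0.02. Among the other nuclear RNA-binding proteins 1 of 24 rose and 14 fell, with a median of -0.41.

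Srsf10, an SR protein that acts as a repressor when dephosphorylated, gave the rise with the smallest p. On probe set 1449121_at its log2 signal ran from 7.92 over a median of 8.27 to 8.48 on the 12 saline arrays, and from 8.73 over 9.02 to 9.26 on the 12 OVA arrays. Every OVA array lay above every saline array. The change was 0.79 ± 0.07 (SE; adjusted p = 7.16e-08). Further probe sets of Srsf10 rose by 0.51 ± 0.13 (1418526_at) and 0.74 ± 0.20 (1418527_a_at), and 1423982_at was not called (0.16 ± 0.10).

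Tra2b, an SR-like activator of exons rich in GAA repeats, rose on both of its probe sets. On 1427432_a_at the saline arrays spanned 9.76 to 10.33 with a median of 9.85 and the OVA arrays 10.12 to 10.95 with a median of 10.43 (0.52 ± 0.10, adjusted p = 0.0003). On 1419543_a_at the change was 1.02 ± 0.20 (adjusted p = 0.000343). The ranges of the arms overlapped on both. Its relative Tra2a fell by 0.29 on its single probe set (SE 0.11, adjusted p = 0.0352).

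Srsf3, the smallest SR protein and a link between splicing and mRNA export, rose on 1 of 6 probe sets. On 1416152_a_at saline arrays ran from 7.36 over 8.05 to 8.97 and OVA arrays from 8.14 over 8.89 to 9.39 (0.78 ± 0.16, adjusted p = 0.000391). The remaining 5 probe sets of Srsf3 were not called and lay between -0.23 and 0.14. Srsf2, a speckle protein that binds both C-rich and G-rich exonic motifs, rose on 1415807_s_at (0.70 ± 0.20) and 1452439_s_at (0.44 ± 0.14) and was not called on the other 2. Srsf4, Srsf5 and Srsf9 were not called on their single probe sets (-0.08 ± 0.06, 0.05 ± 0.21 and 0.01 ± 0.08), and Srsf11 fell on 1 of 2.

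Among hnRNP proteins, Hnrnpab and Hnrnpf had only rises among their calls. Hnrnpab, a relative of the AU-rich element binder Hnrnpd, rose on 4 of 5 tested probe sets. On 1415914_at the saline arrays spanned 10.86 to 11.32 (median 11.04) and the OVA arrays 11.15 to 11.48 (median 11.38), a change of 0.28 ± 0.06 (adjusted p = 0.00104). Hnrnpf, which binds runs of G, rose by 0.98 ± 0.24 on 1423382_a_at and 0.86 ± 0.20 on 1450963_at. Both of its _x_at probe sets were not called (0.02 ± 0.10 and -0.24 ± 0.10).

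Fubp1, which binds a single-stranded element upstream of Myc and also assists splice site recognition, gave the fall with the smallest p. On 1437543_at the saline arrays ran from 8.52 over 9.20 to 9.57 and the OVA arrays from 6.32 over 7.30 to 8.58. The arms overlapped only where the highest OVA array passed the lowest saline array. The change was -1.73 ± 0.16 (adjusted p = 9.33e-08). Probe set 1433482_a_at of the same gene was not called (0.19 ± 0.12), and 2 more lay below the limit for testing.

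Luc7l2, a U1 snRNP-associated protein that helps select 5' splice sites, fell on 3 of 5 probe sets. On 1436766_at saline arrays ran from 9.90 over 10.35 to 10.63 and OVA arrays from 7.75 over 8.81 to 9.65, with no overlap (-1.57 ± 0.17, adjusted p = 4.74e-07). The other falls were -0.84 ± 0.16 (1436767_at) and -0.46 ± 0.08 (1423251_at). Clasrp, an SR-like partner of the Clk kinases, fell (-1.5 ± 0.40, adjusted p = 0.0043), with ranges of 7.23 to 9.61 in saline and 5.01 to 8.61 in OVA.

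Sfpq and Nono form heterodimers that bind the long RNA Neat1 in paraspeckles. Sfpq fell on 1436898_at from a saline median of 10.79 (9.51 to 11.18) to an OVA median of 9.24 (7.37 to 10.13), a change of -1.57 ± 0.22 (adjusted p = 8.92e-06). It also fell on 1438459_x_at (-0.66 ± 0.10), while 1423795_at (0.18 ± 0.11) and 1438458_a_at (-0.03 ± 0.14) were not called. Ewsr1, a FET family protein, fell on 1436884_x_at (-0.83 ± 0.12, adjusted p = 9.23e-06) and was not called on 1417238_at (0.08 ± 0.18). The DEAD-box helicase Ddx17 fell on both tested probe sets (-0.67 ± 0.10 and -0.49 ± 0.07), and its paralogue Ddx5 on 2 of 6, both of them _x_at.

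Hnrnpdl, a relative of Hnrnpd whose transcript is autoregulated by alternative splicing, fell on 1424251_a_at by 0.47 (SE 0.06, adjusted p = 4.58e-06). Saline arrays spanned 12.28 to 12.67 (median 12.44) and OVA arrays 11.76 to 12.19 (median 11.97), without overlap. Probe set 1424252_at fell by 0.63 (SE 0.13) and 3 more probe sets of the gene were not called. Hnrnph1, Hnrnpk and Hnrnpm had only falls among their calls, between -0.52 and -0.25. Hnrnpc, Hnrnpd, Hnrnph2, Hnrnpl and Hnrnpr were not called on any probe set.

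In all, 7 members separated the arms completely (1.77% of all tested probe sets did so), 1 with OVA higher (0.376%) and 6 with OVA lower (1.39%). The 1 higher was Srsf10 1449121_at. Those lower were Srsf6 1416721_s_at, Hnrnpdl 1424251_a_at, Luc7l2 1436766_at, Nono 1431239_at, Safb 1454929_s_at and Safb2 1427987_at.

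Safb and Safb2 encode scaffold attachment factors, which bind both AT-rich matrix DNA and RNA. All 5 probe sets of the pair fell. Safb2 1427988_s_at and Safb 1454929_s_at have the suffix _s_at and may also read another gene, which was not tested. The 5 falls may therefore not be 5 separate readings. On Safb2 1427988_s_at the saline arrays spanned 9.04 to 10.66 (median 10.05) and the OVA arrays 8.22 to 9.07 (median 8.49), a change of -1.46 ± 0.14 (adjusted p = 1.12e-07). Safb2 1427987_at fell by 0.99 (SE 0.10) and 1452629_at by 0.91 (SE 0.25). Safb fell by 0.67 (SE 0.11) on 1454928_at and by 0.58 (SE 0.10) on 1454929_s_at.

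The 2 genes lie head to head on chromosome 17 with 396 bases between their start sites. Their promoters are shown because both genes fell and the upstream sequence is partly shared. The 250 bases before each RefSeq start are printed 5' to 3' on the strand of the gene, at chr17:56584732-56584981 (plus strand) for Safb and chr17:56584586-56584835 (minus strand) for Safb2, in assembly GRCm38.p6. Capitals mark the 104 bases that belong to both windows, read on opposite strands.
Safb: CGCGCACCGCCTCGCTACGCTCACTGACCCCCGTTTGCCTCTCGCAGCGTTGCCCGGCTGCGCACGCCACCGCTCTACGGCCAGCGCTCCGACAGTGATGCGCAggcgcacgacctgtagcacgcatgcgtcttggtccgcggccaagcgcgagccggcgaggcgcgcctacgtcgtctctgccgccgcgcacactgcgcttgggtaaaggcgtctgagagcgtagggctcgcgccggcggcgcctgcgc
Safb2: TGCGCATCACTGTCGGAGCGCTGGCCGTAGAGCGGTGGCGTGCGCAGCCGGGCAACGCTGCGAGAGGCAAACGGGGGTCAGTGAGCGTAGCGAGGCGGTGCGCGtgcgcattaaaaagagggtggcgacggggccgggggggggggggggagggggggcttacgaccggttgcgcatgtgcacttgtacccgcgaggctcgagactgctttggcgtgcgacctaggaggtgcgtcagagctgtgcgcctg
The windows hold 42 and 30 CG pairs and are 72.4% and 69.2% G and C. Across the 55 RefSeq promoter windows of the 39 genes (the 250 bases before a start), the median was 23 CG pairs, against 6 over 32851 windows of all genes. The motif GGGCGG, searched on both strands, stood in 69.1% of the members' windows and 32.7% of all windows, CCAAT in 47.3% and 33.8%, and TATAAA in 9.09% and 12.4%. The windows of all genes were not matched for expression or CG pairs. The differences were not tested and cannot be called particular to the members.

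Several genes had probe sets that moved in opposite directions between the same arrays. Srsf1, the founding SR protein and a regulator of its own transcript, had 6. Probe set 1452430_s_at ran from 5.91 over 7.44 to 10.11 on saline arrays and from 6.63 over 10.10 to 10.59 on OVA arrays, a rise of 2.03 ± 0.45 (adjusted p = 0.000976) and the largest change called among the members. Probe set 1430982_at rose by 0.56 ± 0.14, 1453722_s_at was not called (0.07 ± 0.10), and 3 fell: 1434972_x_at (-0.54 ± 0.08, adjusted p = 1.91e-05), 1428099_a_at (-0.43 ± 0.12) and 1428100_at (-0.33 ± 0.12). On 1434972_x_at the saline arrays spanned 10.33 to 11.15 (median 10.74) and the OVA arrays 10.06 to 10.52 (median 10.23), so the direction was opposite to that of 1452430_s_at on the same arrays.

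Srsf6, an SR protein involved in epithelial wound repair, fell on 1416721_s_at from a saline range of 10.09 to 10.52 to an OVA range of 9.52 to 9.91 (-0.59 ± 0.06, adjusted p = 4.74e-07). On 1416720_at it rose (0.23 ± 0.09, adjusted p = 0.0469), and on 1448454_at it was not called (-0.09 ± 0.08). Hnrnpa1, a repressor of exons and the usual opponent of Srsf1, rose on 1455305_x_at (0.57 ± 0.11, adjusted p = 0.000251; 8.67 to 9.83 in saline, 9.35 to 10.10 in OVA) and fell on 1436549_a_at (-0.64 ± 0.12). Hnrnpa1 has many processed copies in the genome, so these signals may include them. Hnrnpa2b1, its close relative, rose on 1420365_a_at (0.24 ± 0.08) and fell on 1433829_a_at (-0.80 ± 0.13) and 1434047_x_at (-0.27 ± 0.08).

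Hnrnpu, a scaffold protein of chromatin and RNA, rose on 1450849_at (0.42 ± 0.12) and 1423051_at (0.17 ± 0.07) and fell on 1434390_at (-0.99 ± 0.16, adjusted p = 5.78e-05) and 1434391_at (-0.37 ± 0.15). Nono rose on 1448103_s_at (0.16 ± 0.07, adjusted p = 0.0497) and fell on 1431239_at (-1.01 ± 0.15, adjusted p = 1.47e-05), with 8.24 to 8.72 in saline and 6.27 to 7.95 in OVA. The calls of Srsf6 1416720_at, Nono 1448103_s_at, Hnrnpu 1423051_at and Hnrnpu 1434391_at lay close to the threshold, with adjusted p from 0.0424 to 0.0497. Each was lost on leaving out single arrays, by 16 or 17 of the 24 that could be left out.

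Most rises of the members followed the 3'/5' ratio from array to array inside the groups. The ratio spread most in DE500_saline (0.10 to 4.38), then in DE2000_OVA (-0.13 to 2.02) and air_saline (0.98 to 2.90). The slopes therefore rest largely on the arrays of these groups. With the group means held fixed, the slope of log2 signal on the ratio was called for 42 members, 30 negative and 12 positive (37.9%, 22.3% and 15.6% of all tested probe sets). Of the 22 members that rose with OVA, 15 had a called negative slope and 0 a positive one. Of the 36 that fell, 2 had a negative and 6 a positive slope. On B1 the called slopes were 43, with 27 negative and 16 positive (33.2%, 19.6% and 13.6% of all), and 14 of the 22 rises were negative and 0 positive. The slopes of all tested probe sets that rose or fell are not given here, so these counts cannot be called particular to the members.

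Srsf1 1452430_s_at had a slope of -1.08 ± 0.09 log2 units per unit of ratio. In DE500_saline it measured 5.91 and 6.59 on replicates 1 and 4, the arrays with the high ratios, and 10.0 and 10.11 on replicates 2 and 3. In DE2000_OVA it measured 10.28, 9.95 and 9.60 on replicates 1 to 3 and 6.63 on replicate 4. The saline arrays with a low ratio thus lay among the OVA arrays, and the OVA array with a high ratio lay among the saline arrays. Tra2b 1419543_a_at (-0.47 ± 0.05), Hnrnpf 1423382_a_at (-0.56 ± 0.06), Srsf2 1415807_s_at (-0.46 ± 0.05) and Hnrnpab 1453849_s_at (-0.47 ± 0.07) also had negative slopes.

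Srsf10 1449121_at behaved otherwise, with a slope of -0.04 ± 0.04 (adjusted p = 0.437). Its DE500_saline replicates measured 7.92, 8.26, 8.48 and 8.22, and DE2000_OVA replicate 4 measured 9.26. Fubp1 1437543_at (-0.09 ± 0.09), Luc7l2 1436766_at (-0.06 ± 0.09) and Srsf6 1416721_s_at (0.03 ± 0.03) had slopes that were not called. Safb2 1427988_s_at had a positive slope of 0.32 ± 0.04, with 10.45 and 10.33 on DE500_saline replicates 1 and 4 and 9.21 and 9.04 on replicates 2 and 3.

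Fitted together with the 3'/5' ratio, 31 members were called between OVA and saline (14.1% of all tested probe sets), 1 higher (4.83%) and 30 lower (9.29%). Of the 36 falls 26 were called again and of the 22 rises 1, Srsf10 1449121_at (0.72, adjusted p = 2.27e-05). The change of Srsf1 1452430_s_at was 0.26 in this fit (adjusted p = 0.474), of Srsf3 1416152_a_at 0.28 and of Hnrnpa1 1455305_x_at 0.33. The changes of Fubp1 1437543_at (-1.87), Luc7l2 1436766_at (-1.66) and Safb2 1427988_s_at (-0.94) were called. By family, 13 falls were called among the other nuclear RNA-binding proteins, 9 among hnRNPs, 5 among SR proteins and 3 among the SR-like ones.

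With the B1 signal as covariate 16 members were called (4.10% of all), 1 higher (0.685%) and 15 lower (3.42%). With both covariates 5 were called (1.69% of all), namely Srsf10 1449121_at (0.96, adjusted p = 0.00711), Safb2 1427988_s_at (-1.10, adjusted p = 0.00645) and 1452629_at (-2.20, adjusted p = 0.0288), Luc7l2 1436766_at (-1.98, adjusted p = 0.0137) and Fubp1 1437543_at (-1.57, adjusted p = 0.037). The median standard error of the members grew from 0.12 without covariates to 0.23 with both. The ratio and B1 differ between the arms, so what belongs to OVA and what to array quality cannot be told apart for any member. This includes the 5 called with both covariates. Without the 3 arrays that stand apart in the ratio, 55 members were called (41.0% of all), 21 higher (20.1%) and 34 lower (20.9%).

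Within each exposure, falls outnumbered rises among the calls. In filtered air 21 members were called (14.8% of all tested probe sets), 5 higher (7.62%) and 16 lower (7.14%), with Safb2 1427988_s_at at -1.72 ± 0.25 and Srsf10 1449121_at at 0.66 ± 0.13. At DE 500, 21 were called (12.5% of all), 1 higher (5.83%) and 20 lower (6.64%), the rise being Srsf10 1449121_at (0.83 ± 0.13). At DE 2000, 31 were called (18.1% of all), 8 higher (7.68%) and 23 lower (10.4%), with Fubp1 1437543_at at -2.47 ± 0.28 and Sfpq 1436898_at at -2.45 ± 0.38. Without the 3 arrays apart (DE500_saline replicates 1 and 4 and DE2000_OVA replicate 4), 34 were called in air (29.3% of all), 2 at DE 500 (0.692%), where 2 saline arrays remained, and 48 at DE 2000 (32.5%). None of the 3 is an air array, and the changes in air are the same in both fits (median -0.026), while their median standard error, which draws on the spread in all groups, was 0.20 with the 3 arrays and 0.17 without. The 2 called at DE 500 were Fubp1 1437543_at (-1.82) and Srsf10 1449121_at (0.68).

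Whether the OVA effect differed between exposures was tested as an interaction. For DE 2000 against air 0 members passed limma's test, as did 0% of all tested probe sets, and 8 members had an unadjusted p below 0.05 (7.92%, against 6.11% of all). For DE 500 against air 0 passed (0% of all), and 4 had an unadjusted p below 0.05 (3.96%, against 3.09%). Leaving out single arrays moved the 8 to between 3 and 11 and the 4 to between 2 and 7. The median standard error of an interaction was 0.28 with 4 arrays a group. Member values ran from -1.87 to 1.12 at DE 2000 and from -1.32 to 0.96 at DE 500, and none was called. Differences well above 0.28 could therefore also go undetected.

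No member passed limma's test in any of the 4 comparisons of exhaust with air. For DE 2000 in saline 0 members were called (0.147% of all) and 5 had an unadjusted p below 0.05 (4.95%, against 5.94%). Nono 1415820_x_at had the smallest p there: air_saline arrays measured 9.38, 9.40, 9.33 and 9.35 and DE2000_saline arrays 10.21, 10.17, 10.07 and 9.70. All 4 exhaust arrays lay above all 4 air arrays, yet the change of 0.67 ± 0.21 had an adjusted p of 0.297. Next was Hnrnpu 1450849_at (0.54 ± 0.20, adjusted p = 0.586).

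For DE 500 in saline 0 members were called (0.00737% of all) and 9 had an unadjusted p below 0.05 (8.91%, against 7.90%). Hnrnpu 1450849_at measured 9.10, 9.22, 8.96 and 9.91 in air_saline and 9.88, 10.67, 10.30 and 9.42 in DE500_saline, overlapping groups that differed by 0.77 ± 0.20 (adjusted p = 0.236). Srsf3 1438215_at measured 7.48, 7.74, 7.41 and 8.29 in air and 8.42, 8.82, 8.47 and 8.37 with exhaust, without overlap (0.79 ± 0.24, adjusted p = 0.277). Without the 3 arrays apart, 11 members were called (9.45% of all), 9 higher (6.42%) and 2 lower (3.03%). Among them were Srsf1 1452430_s_at at 2.27 ± 0.42 and Safb2 1427988_s_at at -1.04 ± 0.18. The 2 DE500_saline arrays then left have ratios of 0.33 and 0.10, beside 0.98 to 2.90 in air_saline. With the ratio as covariate 2 were called (0.552% of all), Hnrnpu 1450849_at (0.84 ± 0.17) and Safb2 1427988_s_at (-0.54 ± 0.12).

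For DE 2000 in OVA 0 members were called (0.0221% of all), and 15 had an unadjusted p below 0.05 (14.9%, against 8.12% of all). Without air_OVA replicate 3 those 15 were 5, and leaving out any other single array of these groups gave 10 to 18. Fubp1 1437543_at measured 7.25, 8.15, 8.58 and 7.35 in air_OVA and 7.14, 7.34, 6.51 and 6.32 in DE2000_OVA (-1.0 ± 0.28, adjusted p = 0.492). The groups overlapped, since the highest exhaust array passed the lowest air array. Luc7l2 1436766_at measured 8.14, 9.53, 9.65 and 9.01 in air and 7.75, 8.16, 9.14 and 7.82 with exhaust (-0.86 ± 0.29, adjusted p = 0.546), again with overlap. With B1 as covariate 15 members were called (7.15% of all), 1 higher (2.85%) and 14 lower (4.30%). In this fit DE2000_OVA replicate 4 has a B1 signal of 12.43 beside 10.85 to 11.06 on the other arrays of its group.

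For DE 500 in OVA 0 members were called (0% of all) and 2 had an unadjusted p below 0.05 (1.98%, against 0.921%). Hnrnpc 1418693_at, of a protein that shields poly-U stretches from cryptic splicing, measured 8.87, 8.81, 8.56 and 8.88 in air_OVA and 9.17, 9.18, 8.94 and 9.27 in DE500_OVA (0.36 ± 0.15, adjusted p = 1.0). Luc7l2 1427087_at measured 7.75, 8.24, 8.11 and 7.98 in air and 7.55, 7.63, 7.45 and 7.82 with exhaust (-0.41 ± 0.17, adjusted p = 1.0). Hnrnpc did not overlap between these groups and Luc7l2 did. The 4 exhaust comparisons share air arrays within an arm and the OVA comparisons share group means, so they are not independent of each other.

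Other RNA-processing genes, each read on its most strongly expressed probe set, give the setting for the OVA comparison. Of 8315 genes read in this way 19.2% rose and 24.4% fell, and of the 35 member genes 4 rose and 15 fell. Among 15 tested genes of nuclear speckles and SR-related proteins 12 fell and 0 rose (median -0.61). They included the speckle scaffold Son (-1.20 ± 0.12), the SR-related proteins Scaf11 (-1.31 ± 0.09) and Srek1 (-1.46 ± 0.14), and the paraspeckle RNA Neat1 (-1.13 ± 0.09), to which Sfpq and Nono bind. With the ratio as covariate 9 of the 15 fell, where 8.80% of all genes did, and with both covariates 3, where 1.17% did.

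Of 10 kinases and transport factors of SR proteins 7 fell and 0 rose (median -0.33). Tnpo3, the importin that carries SR proteins into the nucleus, fell by 0.67 (SE 0.09), Cdk12, which phosphorylates RNA polymerase II, by 0.73 (SE 0.13), and the SR protein kinases Clk3 and Clk4 by 0.36 and 0.39. Of 32 core spliceosome genes 5 rose and 12 fell (median -0.13). The Sm protein gene Snrpd3 rose by 1.98 ± 0.25 and the U1 protein gene Snrnp70 fell by 0.99 (SE 0.13), beside Dhx15, a helicase that releases spent spliceosomes (0.56 ± 0.11), and Prpf6 of the tri-snRNP (-0.44 ± 0.09).

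Of 23 tissue splicing regulators and other nuclear RNA-binding proteins 4 rose and 10 fell (median -0.12). Rbm25 (-1.23 ± 0.10), Rbm5 (-0.52 ± 0.06) and Tial1 (-0.76 ± 0.10), which all modulate splice site choice, fell, and Ptbp1, the polypyrimidine tract repressor, rose (1.33 ± 0.17). Of 12 genes of the exon junction complex, mRNA export and nonsense-mediated decay 6 fell and 0 rose (median -0.28), including the export factors Nxf1 (-1.07 ± 0.11), Ddx39b (-0.73 ± 0.07) and Thoc1 (-0.34 ± 0.09) and the junction protein Casc3 (-0.38 ± 0.09). With the ratio as covariate, falls in these 4 lists (kinases and transport, core, regulators, export and decay) numbered 6, 3, 9 and 2, and with both covariates 0, 1, 1 and 0, beside the same 8.80% and 1.17% of all genes.

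Counts also differed by probe set design. Of 17 members with the suffix _x_at, 1 rose and 9 fell (median -0.27), and over all 1042 tested _x_at probe sets 7.97% rose and 36.1% fell (median -0.20). Of 44 members with _at alone, 10 rose and 16 fell, beside 24.0% and 21.6% of all such probe sets. Of 27 with _a_at, 6 rose and 8 fell, beside 25.7% and 23.0%. Of 13 with _s_at, 5 rose and 3 fell (median 0.07), beside 19.1% and 28.5% of all such probe sets (median -0.08). The part of probe set design in the changes was not tested.

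Markers of 12 cell types were read in the same comparison, and 5 types had a called marker. Of 4 endothelial markers 1 rose and 2 fell, with a summed log2 level of 14.19 to 14.44 in saline and 14.06 to 14.29 in OVA. The 1 tested fat marker, Adipoq, rose, with 6.17 to 9.15 in saline and 8.14 to 10.37 in OVA. Of 3 cardiac muscle markers 1 fell (summed level 11.39 to 13.44 in saline, 11.76 to 12.88 in OVA). Of 4 neutrophil markers 1 fell (11.15 to 13.46 and 10.83 to 12.12), and of 5 alveolar type 2 markers 1 rose and 1 fell (16.15 to 16.63 and 16.06 to 16.78). The summed levels of the arms overlapped for each of these 5 types. Tested markers of club cells, ciliated cells, alveolar macrophages, T cells, B cells, mesenchyme and cycling cells gave no call. The part of cell composition in the members' values was not tested.

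The 9 members below the limit for testing belong to Hnrnpab and Fubp1 (2 each) and to Hnrnpa1, Hnrnpdl, Ddx17, Ewsr1 and Sfpq. In a fit without the limit, 3 of the 9 were called, all lower with OVA, where 31.1% of all 22626 probe sets were called and 15.2% were lower. These were Fubp1 1437544_at (-1.28 ± 0.22) and 1433640_at (-0.81 ± 0.19) and Hnrnpdl 1428224_at (-0.56 ± 0.17). The 31.1% and 15.2% include probe sets above the limit, and the shares among those below it alone are not given here. The mean log2 signals of all 9 lay between 2.73 and 7.01, below the limit of 7.11, and the lowest tested member stood at 7.38.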

How the data were processed

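Frozen mouse lung RNA was extracted with RNeasy columns and 2 ug of total RNA was labelled with biotin, per the labels. The deposited values are linear signal intensities from MAS5 (version not stated), per the submitters' processing notes. Trimmed of 2% at either end, array means were 500.1 to 500.2, so signals had been scaled before deposit. Of 22690 probe sets 64 controls were set aside. Intensities were taken to log2 without a pseudocount, and probe sets at or above the 40th percentile of mean log2 signal were tested.

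Group means were estimated from the 24 arrays together by limma 3.58.1 (R 4.3.3; moderated by eBayes with trend), two-sided, with Benjamini-Hochberg adjustment over 13576 probe sets in each comparison. The fit was tested on simulated data. A value after ± is an SE unless called an SD. Tables and sequences were handled with Python 3.11.15 and pandas 2.3.3.

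The members, lists and tests were chosen with earlier results of these data known. Values were given in full for up to 6 called rises and 6 called falls with the smallest p (at most 1 per gene and direction), for all probe sets of genes called both ways, and for the 2 smallest p in each exhaust comparison; of each other list up to 4 genes were named. Other members are named as examples. Alternatives were quantile normalization, median scaling, a pseudocount of 32, no filter or one at the 60th percentile, no trend, array weights, only the groups compared, the replicate number as block, the covariates, and leaving out arrays. The slopes on the ratio and B1 were chosen after seeing the data. Replicate numbers were not taken to pair the arrays. Probe sets were named from the platform annotation: 20380 name 1 gene, 691 several and 1555 none. The number of arrays limits the precision.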

Additional observations from a re-analysis of the deposited data

Results flagged for a closer look

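Of 228 groups of 4 values examined, over 35 probe sets and 3 control measures, 8 had 1 array farther from the rest than Dixon's 95% limit allows. About 1 in 20 groups would be marked by chance alone. Of these, 3 were control measures of DE2000_OVA replicate 4, with a Gapdh log2 3'/5' ratio of 2.09, an actin ratio of 1.95 and a log2 B1 signal of 12.43, each the highest of its group. The same array was the lowest of its group on Srsf3 1438215_at at 7.03, where the others lay between 7.93 and 8.06. The other 4 were each on another array. Tra2b 1427432_a_at stood at 9.99 on DE2000_saline replicate 3 (others 9.82 to 9.84). Srsf1 1430982_at stood at 8.60 on DE500_OVA replicate 1 (others 9.11 to 9.20). Hnrnpa2b1 1433830_at stood at 9.79 on air_OVA replicate 3 (others 8.96 to 9.0). Nono 1448103_s_at stood at 10.85 on DE2000_saline replicate 2 (others 11.23 to 11.25).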

How the results depend on the processing

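The count of 58 members called between OVA and saline stayed between 52 and 60 on leaving out each array. It was 31 with the 3'/5' ratio, 16 with B1 and 5 with both. In filtered air the count of 21 was 32 with only the groups compared, 35 with array weights, 5 with the ratio, 1 with B1, 2 with both and 34 without the 3 arrays apart. Leaving out single arrays gave 7 to 20, with 8 without air_OVA replicate 1, 12 without air_OVA replicate 4 and 7 without air_saline replicate 3. At DE 500 the count of 21 was 6 with only the groups compared, 5 with the ratio, 3 with B1, 4 with both and 2 without the 3 arrays. Single arrays gave 9 to 34, with 13 without DE500_OVA replicate 2, and 9, 34 and 11 without DE500_saline replicates 1, 3 and 4. At DE 2000 the count of 31 was 20 with B1, 1 with both and 48 without the 3 arrays, and 22 to 44 over single arrays. For DE 500 against air in saline the 0 became 2 with the ratio, 2 with both, 11 without the 3 arrays, and 0 to 1 over single arrays (1 without air_saline replicate 4). For DE 2000 against air in OVA it became 15 with B1, and for the interaction at DE 2000 1 with B1. Members with an unadjusted p below 0.05 over single arrays numbered 3 to 7 for DE 2000 in saline, 8 to 14 for DE 500 in saline (14 without air_saline replicate 4) and 0 to 3 for DE 500 in OVA (0 without air_OVA replicate 3). The cause was not tested. With the replicate number as a block the count for OVA was 57. Of 40 named results, calls lost were 2 with the block (Hnrnpu 1434391_at and Nono 1448103_s_at), 4 with median scaling, 4 without the filter, 3 without the trend and 1 with the pseudocount, all among the 4 calls near the threshold except Hnrnpa2b1 1420365_a_at with median scaling (adjusted p = 0.11 by limma). Residuals of same-numbered arrays correlated at 0.03 on average over 60 pairs (-0.43 to 0.59). In 40 of 120 comparisons the same-numbered array was the best match among the 4 of another group. By chance alone 1 in 4 comparisons would give this, and the difference from that share was not tested. The replicate numbers were not taken to pair the arrays.

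Of the 58 calls between OVA and saline, 2 rises turned sign with the ratio, 12 rises and 3 falls with B1, and 7 rises and 6 falls with both; 0 did without the 3 arrays. Among the named probe sets these were, with B1, Srsf3 1416152_a_at (-0.0043), Srsf1 1452430_s_at (-0.92), Srsf6 1416720_at (-0.12), Srsf1 1430982_at (-0.030), Hnrnpu 1423051_at (-0.11, and -0.12 with both) and Srsf1 1428099_a_at (0.038, and 0.11 with both). Hnrnpa2b1 1434047_x_at gave 0.070 with both. Members not called without covariates turned sign too: Nono 1415820_x_at (0.061 with the ratio, 0.13 with B1, 0.010 without the 3 arrays), Hnrnpu 1423050_s_at (0.26, 0.55, 0.50 with the ratio, B1 and both, 0.034 without the 3 arrays) and Srsf1 1453722_s_at (-0.17, -0.35, -0.23 with the ratio, B1 and both). The cause was not tested.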
